A study of Mus musculus with 12 samples.

Results

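The miRNAs described are the arms of the neuronal families miR-124, miR-9 and miR-129. They were chosen by a rule on names, with earlier results of these data known. This gave 6 of the 696 mouse miRNA names on the array, with 2 in each family. They are mmu-miR-124-3p, mmu-miR-124-5p, mmu-miR-9-5p, mmu-miR-9-3p, mmu-miR-129-5p and mmu-miR-129-2-3p. The study profiled miRNAs in mice with form-deprivation myopia, in which a diffuser over an eye blurs the retinal image and the eye grows too long. C57BL/6J mice wore a frosted diffuser over the right eye from postnatal day 24 for 10 days, and the retina and sclera were collected at postnatal day 34. The 4 groups were the myopic retina and myopic sclera of the deprived right eyes and the control retina and control sclera of the untreated left eyes of deprived mice, with 3 arrays in each. The methods of the study state that each sample was a pool of tissue from 3 eyes, whereas the sample labels name single mice.

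All groups were of the same strain and age and differed only in tissue and in deprivation. The control was the fellow eye, so an effect of deprivation that reaches both eyes would not appear in the comparison. The replicate numbers are identifiers that the labels share between both eyes and both tissues, whether they stand for a mouse or for the mice of a pool, so the groups were not independent. Each of the 3 slides held an array of every group, always at the position of that group, and the effects of position and group cannot be told apart. Between 353 and 401 miRNAs were detected on the retina arrays and between 274 and 317 on the sclera arrays. Control sclera 3 stood apart, with the fewest miRNAs detected (274) and the lowest summed signal of the 12 arrays, and the tissue differences, the scleral changes, the closest profiles and the arm ratios are given below with and without it. The tissue labels were checked with miRNAs of fibroblasts and mesenchyme (the miR-199, miR-214 and miR-10 group). Of the 6 on the array 5 could be tested, and all 5 were higher in the control sclera than in the control retina by the test described below, as were 23% of the 443 miRNAs tested.

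A mature miRNA guides the Argonaute protein to messenger RNAs that carry a match to its seed (bases 2 to 8), and those messages are repressed. MiR-124 is the classical neuronal miRNA and represses non-neuronal transcripts in differentiated neurons, including photoreceptors. MiR-9 acts in neural progenitors and in neurons, where both arms are loaded and have different targets, and miR-129 is enriched in brain and retina and regulates transcripts of ion channels and synaptic proteins. Retina is neural tissue, whereas sclera is a fibrous coat of collagen and fibroblasts.

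The seeds of the set are shown because they define which messages each arm can pair with. Mature sequences from RefSeq (GRCm38.p6) are written with the seed in capitals, for 4 of the 6 members.
mmu-miR-9-5p: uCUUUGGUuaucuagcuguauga
mmu-miR-9-3p: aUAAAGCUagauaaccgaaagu
mmu-miR-129-5p: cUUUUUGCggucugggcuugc
mmu-miR-129-2-3p: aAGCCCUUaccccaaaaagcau
These 4 seeds differed from each other, and among the 528 array names with a sequence none of the others had any of them. The arms of one hairpin thus carry unrelated seeds although they are cut from the same precursor. MiR-9-5p is encoded by 3 precursor genes, miR-129-5p by 2 and miR-129-2-3p by 1.

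The array measures a mature miRNA, and the signal cannot be assigned to a locus where several genes give the same molecule. According to the mm9 annotation of the array, the stretch probed in miR-124-3p lies at chr2:180628793-180628807 (Mir124a-3), chr3:17695728-17695742 (Mir124a-2) and chr14:65209551-65209565 (Mir124a-1), all on the plus strand. For miR-9-5p it lies at chr3:88019539-88019557 (Mir9-1), chr13:83878430-83878448 (Mir9-2) and chr7:86650169-86650187 (Mir9-3), also on the plus strand. For miR-129-5p it lies at chr6:28972630-28972644 on the plus strand (Mir129-1) and chr2:94081541-94081555 on the minus strand (Mir129-2). In RefSeq, 6 of these genes fall within the span of a long non-coding RNA gene, namely Mir124-2hg, Mir124a-1hg, Gm3764 (Mir9-1), C130071C03Rik (Mir9-2), Mir9-3hg and Mir670hg (Mir129-2), and none of the 8 was placed in a protein-coding gene.

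For the 3p arm of miR-129 the probes cannot be assumed to separate the loci. The array lists miR-129-2-3p only at chr2:94081581-94081598 (minus strand). The matching stretch of the Mir129-1 hairpin differs from it by 1 base, C20U, counted from 1 at the 5′ end, with the base of miR-129-2-3p first. The longer of the 2 probes for this arm pairs with bases 5 to 22 and so covers the differing base. The Mir129-1 stretch is shown with the differing base in capitals and the probe with the bases that pair with the seed in capitals.
Mir129-1 stretch: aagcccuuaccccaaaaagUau
Probe: atgctttttggggtAAGG

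All 6 miRNAs were detected on all 6 retina arrays, and their signal was far lower on every sclera array. The values that follow are total gene signals, the background-subtracted fluorescence added over the detected probes of a miRNA in arbitrary units, without normalization between arrays. Signals are compared within a miRNA only, since probes differ in brightness.

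For miR-124-3p the signal was 91030, 93440 and 106557 in control retina 1, 2 and 3 and 105019, 123784 and 87155 in myopic retina 1, 2 and 3. In control sclera 1, 2 and 3 it was 4285, 5088 and 263, and in myopic sclera 1, 2 and 3 it was 2966, 1298 and 2263. The retina values of the 2 groups overlapped and lay within a 1.42-fold range, whereas the sclera values spanned 19.3-fold, with control sclera 3 lowest and the other 2 control scleras highest. No sclera array reached a retina array. On each retina array miR-124-3p had the highest total gene signal of all 696 miRNAs on that array. This ranks signals and not amounts of miRNA, since probes differ in brightness.

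The other arm, miR-124-5p, gave 500, 489 and 601 in the control retina and 554, 662 and 494 in the myopic retina. In the control sclera it gave 21.0 and 25.1 and was not detected on array 3, and in the myopic sclera it gave 8.33 and 7.64 and was not detected on array 2. Detection in the sclera was thus lost on 1 array of each group, and the 4 detected values were low, with only 1 of the 2 probes detected on both myopic arrays.

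MiR-9-5p, the arm that represses transcripts of neural progenitors, had a signal of 2809, 3007 and 2826 in the control retina and of 2911, 3898 and 2933 in the myopic retina. In the sclera it was 77.3, 111 and 13.6 in the control group and 57.1, 35.0 and 39.4 in the myopic group. Control sclera 3 was again the lowest and control sclera 2 the highest, and 1 of the 2 probes was detected on control sclera 3.

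MiR-9-3p, the opposite arm, had a signal of 7565, 8069 and 9014 in the control retina and of 8419, 10821 and 8059 in the myopic retina. In the sclera it was 313, 501 and 108 in the control group and 215, 133 and 190 in the myopic group. It was measured by both probes on all 12 arrays, and the sclera arrays had the same highest and lowest array as for miR-9-5p.

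The signal of miR-129-5p was 1910, 1795 and 1771 in the control retina and 1772, 2172 and 1877 in the myopic retina. In the sclera it was detected on 3 of 6 arrays only, at 14.4 and 12.1 in control sclera 1 and 2 and at 11.8 in myopic sclera 1. Its shorter probe was not detected on any sclera array, so these values come from 1 probe.

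For miR-129-2-3p the signal was 5775, 6090 and 5541 in the control retina and 5735, 7464 and 5815 in the myopic retina. In the sclera it was 81.5, 72.2 and 18.2 in the control group and 72.7, 31.9 and 14.0 in the myopic group. Only 1 of the 2 probes was detected on control sclera 1 and 3 and on myopic sclera 2 and 3. The lowest sclera value was myopic sclera 3, not control sclera 3 as for miR-124-3p and both miR-9 arms. Myopic retina 2 was the highest retina array for all 6 miRNAs, and it also had the highest summed signal of the 12 arrays.

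**Figure D1:**
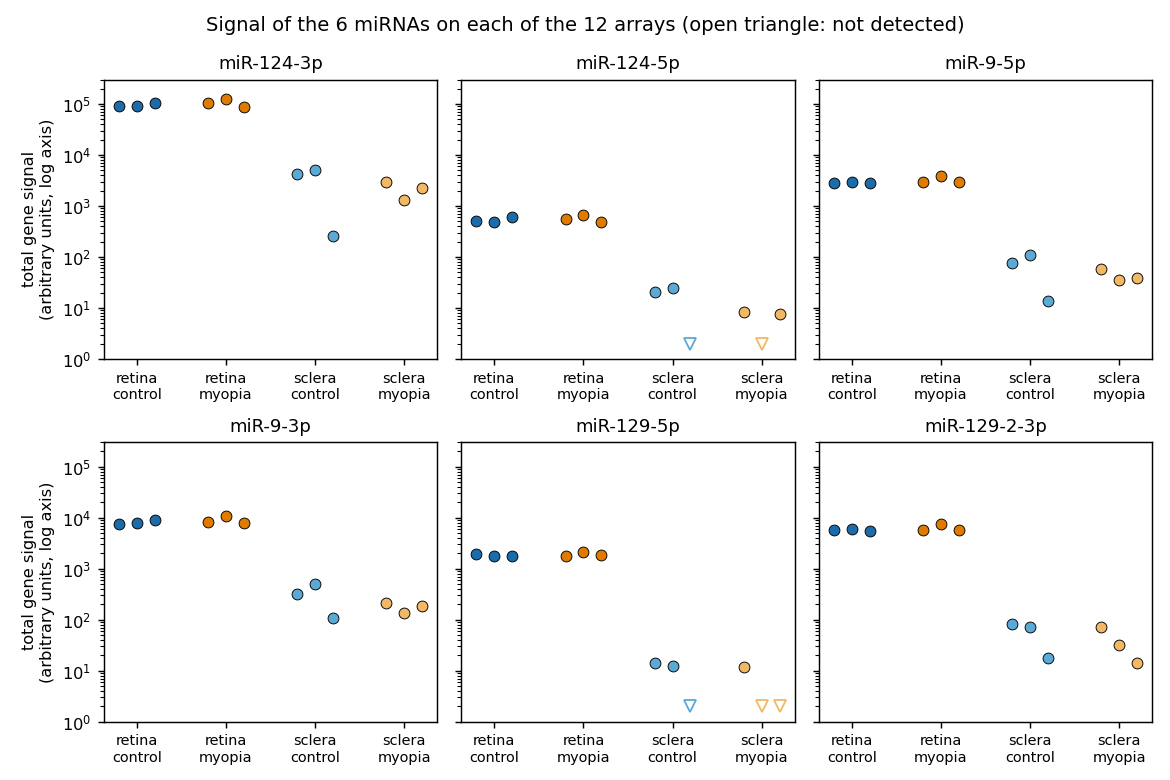
Total gene signal (arbitrary units, log axis) of each of the 6 miRNAs on the 12 arrays, with 1 point per array and replicates 1 to 3 from left to right in each group; open triangles mark arrays without detection and have no value. All retina points lie above all sclera points, and the control and myopic retina overlap for each miRNA.

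The difference between tissues was tested in the untreated eyes, as control retina against control sclera. Signals were set to at least 0.5, quantile normalized over the 12 arrays and transformed to log2, and a miRNA was called when the adjusted p-value from limma was under 0.05 and the difference at least 2-fold. All 6 miRNAs were called higher in the retina, against 27.5% of the 443 miRNAs tested, and on all 6 every retina array lay above every sclera array, against 33% of the miRNAs tested. The log2 difference was 5.09 (standard error 0.69, adjusted p = 1.4e-04) for miR-124-3p, 4.23 (0.32, 2.1e-06) for miR-9-5p, 3.73 (0.21, 2.6e-07) for miR-9-3p and 5.30 (0.40, 2.0e-06) for miR-129-2-3p. These 4 miRNAs were detected on all 12 arrays, so both sides of each difference were measured. The control sclera side was measured by 1 of 2 probes for miR-129-2-3p on arrays 1 and 3 and for miR-9-5p on array 3, and undetected probes add no signal. For miR-124-5p it was 5.36 (1.88, adjusted p = 0.032) and for miR-129-5p 7.67 (1.79, 0.0044), and the sizes of both rest partly on the floor of 0.5 given to undetected arrays. The retina was higher in 3 of 3 pairs of pools for each of the 6. In bulk tissue, fewer cells of a type and less RNA per cell cannot be told apart.

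The retina and sclera of the deprived eyes were compared in the same fit, which shares the normalization and the estimate of the spread with the control comparison, and the animals were also shared. The log2 difference between myopic retina and myopic sclera was 4.79 (standard error 0.69, adjusted p = 1.9e-04) for miR-124-3p, 5.76 (1.88, 0.021) for miR-124-5p, 4.37 (0.32, 1.4e-06) for miR-9-5p and 4.16 (0.21, 1.1e-07) for miR-9-3p. For miR-129-5p it was 9.61 (1.79, adjusted p = 9.5e-04) and for miR-129-2-3p 5.76 (0.40, 9.3e-07). All 6 were called, against 32.5% of the miRNAs tested, and none of the 6 overlapped between the tissues, where 43.6% of the miRNAs tested had every retina array above every sclera array. The size for miR-129-5p was set mostly by the floor, since it was not detected on 2 of the 3 myopic scleras, and that for miR-124-5p in part, since it was not detected on 1.

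The call of miR-124-5p was the weakest of the 6. Without control sclera 3 the difference between the control tissues was 3.23 (adjusted p = 0.091) and with the replicate number as a block it was 5.36 with an adjusted p of 0.051, both without a call. Between the myopic tissues it lost its call without myopic retina 1 (adjusted p = 0.053), myopic retina 2 (0.054) or myopic sclera 2, without which the difference was 3.89 (0.072). Between the control tissues, leaving out any of the control retinas or myopic retina 2 also ended its call, with adjusted p-values of 0.051 to 0.074. The other 5 kept their call without control sclera 3, at log2 differences of 4.11 for miR-124-3p, 3.83 for miR-9-5p, 3.56 for miR-9-3p, 5.77 for miR-129-5p and 5.08 for miR-129-2-3p. Without normalization between arrays, the lowest control retina was 17.9 times the highest control sclera for miR-124-3p, 25.3 times for miR-9-5p, 15.1 times for miR-9-3p and 68.0 times for miR-129-2-3p.

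**Figure D2:**
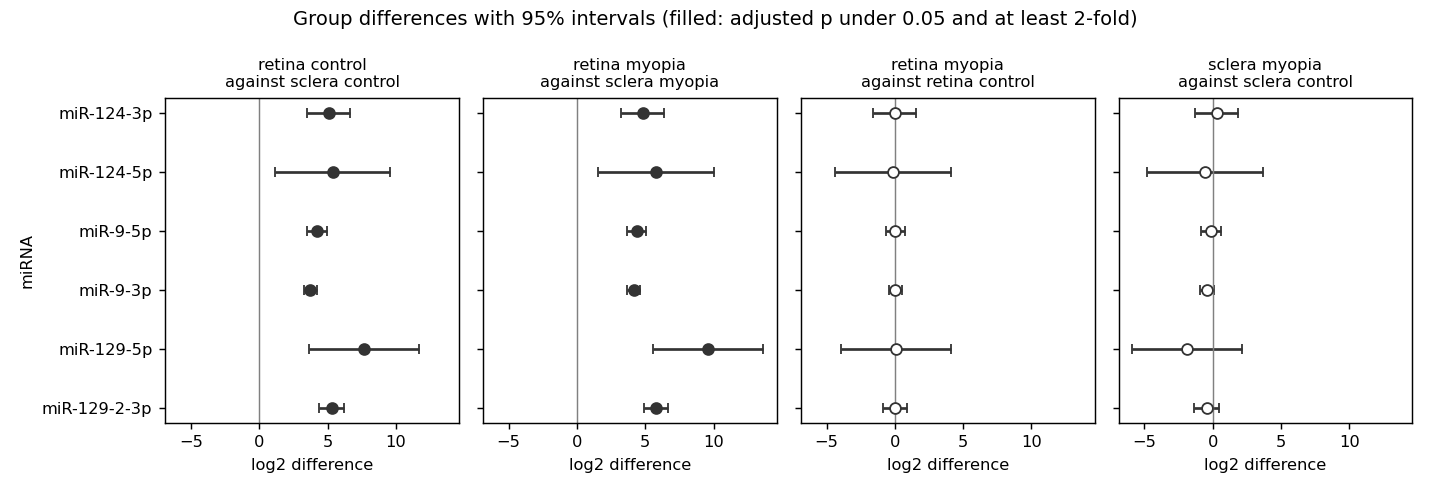
Log2 difference of each of the 6 miRNAs (points, first group minus second) with the 95% confidence interval (bars) in 4 comparisons, filled where the adjusted p-value was under 0.05 and the difference at least 2-fold. Both comparisons of retina with sclera lie above 0 for all 6 miRNAs, at 3.73 or more, and both comparisons of myopic with control eyes have intervals that include 0. For miR-124-3p in the retina the normalization fixed the difference at 0.

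A list of 11 other neuron-enriched miRNAs was read in the same way. In the control tissues 10 of the 11 were called higher in the retina, against 27.5% of all miRNAs tested. Among them were miR-132-3p, an activity-dependent neuronal miRNA, with a log2 difference of 3.60 (standard error 0.18, adjusted p = 1.1e-07), and miR-128-3p, with 2.78 (0.14, 9.9e-08). MiR-212-3p was not called, with a log2 difference of -0.63. In this list 5 miRNAs were not detected on any sclera array, namely miR-137-3p, miR-138-5p, miR-7b-5p, miR-384-5p and miR-488-3p, although each was detected on all 6 retina arrays. Another 4 of the list were detected on all 6 sclera arrays, as were 4 of the 6 miRNAs of the set.

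How much of the retinal signal the sclera arrays held was expressed as a percentage of the mean signal of the control retina, without normalization between arrays. For miR-124-3p the control scleras were at 4.42%, 5.24% and 0.27% and the myopic scleras at 3.06%, 1.34% and 2.33%. For miR-9-3p they were at 3.81%, 6.10% and 1.31% and at 2.62%, 1.62% and 2.31%. For miR-9-5p they were at 2.68%, 3.86% and 0.47% and at 1.98%, 1.22% and 1.37%. The 3 arms shared the highest and the lowest array, control sclera 2 and control sclera 3. MiR-129-2-3p was between 0.24% and 1.40%, below the other 3 on each sclera array but control sclera 3, where miR-124-3p was lower (0.27% against 0.31%), and its order of arrays was different. With the signals scaled to the 75th percentile of each array the group means rose to over 1.5 times their value for each of these miRNAs in both groups. Examples are the rise from 2.24% to 4.74% in the myopic sclera for miR-124-3p and from 3.74% to 6.55% in the control sclera for miR-9-3p.

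The miR-183 cluster, which is expressed in photoreceptors and other sensory cells, moved with these values. For miR-183-5p the control scleras were at 5.55%, 6.68% and 0.58% of the control retina and the myopic scleras at 3.45%, 1.60% and 3.27%. The values of miR-96-5p were 4.91%, 6.09%, 0.24%, 3.12%, 1.58% and 2.83% and those of miR-182-5p 6.14%, 6.78%, 0.59%, 3.25%, 1.74% and 3.20%, in the same order of arrays. All 3 miRNAs of the photoreceptor list thus had their highest value in control sclera 2 and their lowest in control sclera 3, as miR-124-3p and both miR-9 arms did. Their summed signal was 107314 to 156113 in the control retina, 459 to 8006 in the control sclera, 107471 to 169632 in the myopic retina and 2024 to 4093 in the myopic sclera, and none of them was at 0 on a sclera array. The 2 miRNAs of pigment cells, miR-204-5p and miR-211-5p, were between 12.6% and 39.6% of the control retina on all 6 sclera arrays. Control sclera 2 and 3 were also the highest and lowest sclera arrays for the summed signal of every other list but pigment cells. These were fibroblasts, smooth and striated muscle, blood, endothelium, oligodendrocytes and other neuron-enriched miRNAs. The fibroblast list was at 23226 on control sclera 2 and at 7669 on control sclera 3. The summed signal of all miRNAs had the same extremes among the sclera arrays, at 382649 and 200620. These extremes were thus not particular to the set or to the photoreceptor list. The part of retinal RNA or of array brightness in the sclera signal of the set was not tested. Since the pools of the 2 groups share mice, no correlation over the 6 sclera arrays was computed.

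**Figure D3:**
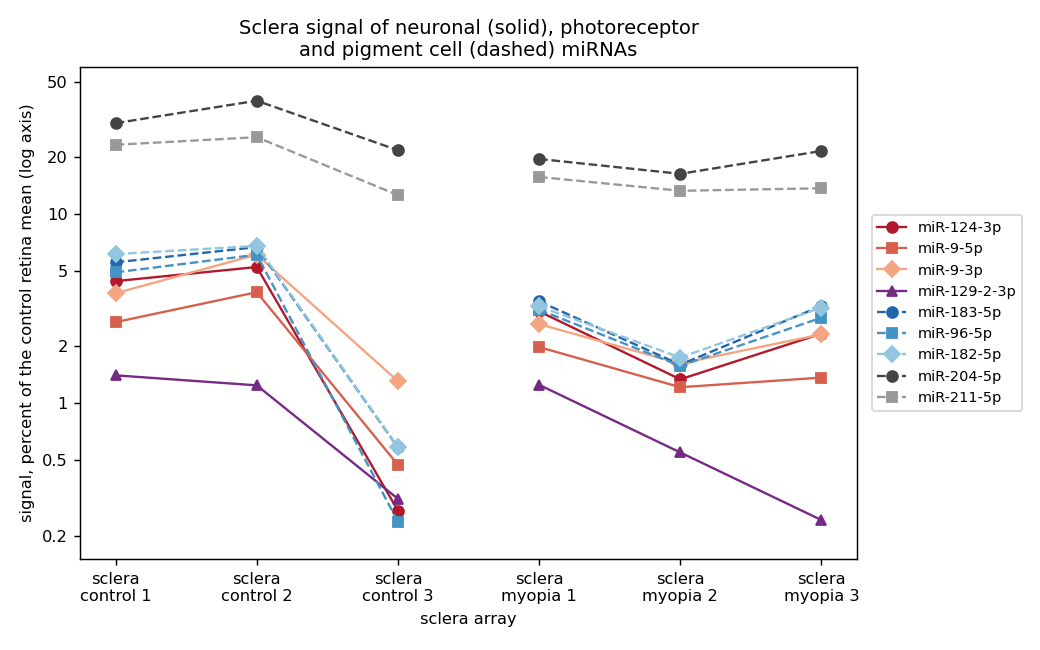
Signal on each of the 6 sclera arrays as a percentage of the mean of the 3 control retinas (log axis), for the 4 miRNAs of the set detected on all sclera arrays (solid lines), the 3 photoreceptor miRNAs and the 2 pigment cell miRNAs (dashed lines); lines only join the points of a miRNA within a group. MiR-124-3p runs with miR-183-5p, miR-96-5p and miR-182-5p and drops to 0.27% on control sclera 3, whereas miR-129-2-3p lies below the other 3 solid lines on the other 5 arrays and the pigment cell miRNAs stay at 12.6% or more.

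The miRNAs with the profile most like that of each member were found over the 12 arrays among 323 miRNAs detected on all retina arrays. Likeness was the root mean square difference between log2 profiles, each centred on its own mean, so that smaller is closer. For miR-124-3p the closest were miR-96-5p (0.49), miR-183-5p (0.60) and miR-182-5p (0.65), against a median of 2.49 over all candidates. For miR-9-5p they were miR-182-5p (0.35), miR-183-5p (0.36) and miR-132-3p (0.42), and for miR-9-3p they were miR-132-3p (0.27), miR-182-5p (0.37) and miR-183-5p (0.40). At least 2 miRNAs of the photoreceptor cluster were thus among the 3 closest profiles of miR-124-3p and of both miR-9 arms. The distance includes the size of the tissue difference. The mean log2 value of miR-96-5p, miR-183-5p and miR-182-5p was 3.84 to 4.02 higher on the retina than on the sclera arrays. These neighbours depended on control sclera 3 and on the scale. Without control sclera 3 the closest to miR-124-3p were miR-598-3p (0.25), miR-7a-5p (0.30) and miR-132-3p (0.43) and the closest to miR-9-5p were miR-598-3p (0.19), miR-132-3p (0.24) and miR-7a-5p (0.30), whereas miR-9-3p had all 3 of the photoreceptor cluster (0.23 to 0.25). With 75th percentile scaling the cluster stayed closest to miR-124-3p (0.16 to 0.34) but was not among the 3 closest to either miR-9 arm. Quantile normalization also gives miRNAs at the top of the retina arrays nearly equal values there, which brings the retinal part of their profiles together. For miR-129-2-3p the closest were miR-383-5p (0.56), miR-216a-5p (0.58) and miR-330-3p (0.59), none of which was detected on a sclera array, and without control sclera 3 they were miR-383-5p (0.59), miR-7a-5p (0.60) and miR-216a-5p (0.60). For miR-124-5p they were miR-543-3p (0.99), miR-598-3p (1.44) and miR-7a-1-3p (1.46), and for miR-129-5p they were miR-153-3p (1.13), miR-7a-1-3p (1.62) and miR-592-5p (1.80). The last 2 profiles include undetected arrays at the floor, and without control sclera 3 their closest miRNA was the same (0.94 and 1.11). These distances describe the arrays, which share tissue and slide, and carry no test.

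Whether form deprivation changed the set in the retina was the main question of the design. By limma none of the 6 miRNAs was called between myopic and control retina, where 0.226% of the miRNAs tested were called (1 of 443, but 122 without control retina 1 and 14 without myopic retina 3), and none had an unadjusted p-value under 0.05, where 29.3% did. The log2 difference was 0 for miR-124-3p (95% confidence interval -1.56 to 1.56), -0.15 for miR-124-5p (-4.38 to 4.09), 0.04 for miR-9-5p (-0.68 to 0.75), 0.02 for miR-9-3p (-0.46 to 0.50), 0.07 for miR-129-5p (-3.97 to 4.11) and 0.02 for miR-129-2-3p (-0.87 to 0.92). The myopic and control retinas overlapped for every one of the 6, whereas 5.19% of the miRNAs tested lay higher and 9.26% lower on every myopic retina. Within the replicate pairs of the normalized values, miR-124-5p was lower in the myopic retina in 3 of 3 (log2 differences of -0.014, -0.18 and -0.25), its groups meeting only in a tie, and no other member moved the same way in all 3. Before normalization the signal of miR-9-5p was higher in the myopic retina in 3 of 3 pairs and that of each of the other 5 in 2 of 3. The intervals are wide because the 4 groups share an estimate of the spread and most of the spread of these miRNAs was in the sclera.

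The value of 0 for miR-124-3p came from the normalization. Quantile normalization gives the brightest miRNA of each array the same value, and since that was miR-124-3p on all 6 retina arrays, its log2 value was 16.65 on each of them with a standard deviation of 0. The authors' own log2 values, made in the same way, were likewise 16.18 on each. The total gene signal of miR-124-3p before normalization was 97009 ± 8356 in the control retina and 105319 ± 18316 in the myopic retina (mean ± SD, n = 3), higher in 2 of 3 pairs. The scale set by the 75th percentile of each array leaves the brightest miRNA free to move, and on it the log2 difference of miR-124-3p was 0.00072.

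When only the 6 retina arrays entered the fit, the spread of the sclera no longer counted and the intervals narrowed. With 75th percentile scaling they ran from -0.17 to 0.17 for miR-124-3p, from -0.21 to 0.20 for miR-124-5p, from -0.09 to 0.20 for miR-9-5p and from -0.11 to 0.18 for miR-9-3p. For miR-129-5p the interval was -0.27 to 0.22 and for miR-129-2-3p -0.17 to 0.19. The limits of all 6 thus lay within 0.27 of 0, in a pairing of this scaling with the retina-only fit that was chosen after seeing the data. That fit took the 6 arrays as independent, although the groups share mice and slides, so its intervals do not bound a change within pairs. For miR-129-5p, with the widest of them, the differences within the replicate pairs on this scale were -0.18, -0.10 and 0.22. With quantile normalization the widest interval in the retina-only fit was that of miR-129-5p, from -0.24 to 0.38, and that of miR-124-5p ran from -0.35 to 0.05. The interval of miR-124-3p there, -0.071 to 0.071, measures no spread of its own, since its values were equal on all 6 retina arrays. The median log2 difference of 329 miRNAs detected in the retina was -0.22 after quantile normalization and -0.02 after 75th percentile scaling, and values near 0 on the first scale are higher than that median.

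**Figure D4:**
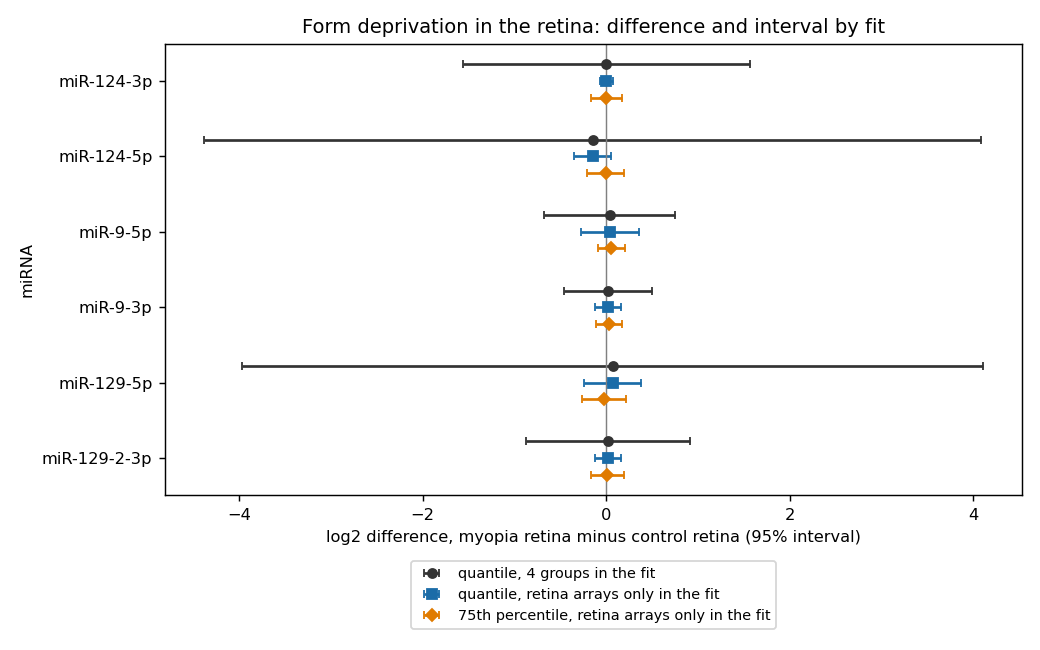
Log2 difference between myopic and control retina for each of the 6 miRNAs (points) with the 95% confidence interval (bars), from the fit of all 4 groups after quantile normalization, from the retina arrays only after the same normalization, and from the retina arrays only after 75th percentile scaling. All intervals include 0, and those of miR-124-5p and miR-129-5p shrink most when the sclera arrays are left out. Quantile normalization fixed the difference of miR-124-3p at 0, so its intervals on that scale do not measure its spread in the retina.

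Each miRNA was measured by 2 probes of different length with 10 spots each, and all 12 probes were detected on all 6 retina arrays. Before normalization the 12 probes had a log2 difference between myopic and control retina of 0.08 to 0.17, while the median of 329 miRNAs on that scale was 0.09. In the sclera the 2 probes of miR-124-3p stood at 4.60% and 3.57% of the control retina on control sclera 1 and at 0.28% and 0.21% on control sclera 3. Those of miR-129-2-3p differed more, at 1.92% and 1.20% on control sclera 2 and 2.04% and 1.20% on myopic sclera 1, and on the other 4 sclera arrays the shorter probe was not detected.

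In the sclera limma called none of the 6 miRNAs between myopic and control eyes, and neither was any of the 443 miRNAs tested called (0%). On this scale and with all arrays none of the 6 had an unadjusted p-value under 0.05, which 13 of the miRNAs tested had (2.93%). The log2 difference was 0.29 for miR-124-3p (standard error 0.69), -0.54 for miR-124-5p (1.88), -0.10 for miR-9-5p (0.32), -0.41 for miR-9-3p (0.21), -1.87 for miR-129-5p (1.79) and -0.43 for miR-129-2-3p (0.40). Of these miR-9-3p had the smallest unadjusted p-value, 0.088 from limma, with an interval of -0.89 to 0.07. With 75th percentile scaling its difference was -0.50 (interval -0.98 to -0.014) and its unadjusted p-value 0.045, with an adjusted p of 0.96. The myopic and control scleras overlapped for all 6, whereas 2.93% of the miRNAs tested lay higher and 2.48% lower on every myopic sclera. The sign for miR-124-3p depended on control sclera 3, without which the difference was -0.68 (interval -1.37 to 0.0025, adjusted p = 0.73). Without that array it was -2.68 for miR-124-5p (-6.09 to 0.74), -0.50 for miR-9-5p (-0.96 to -0.034), -0.58 for miR-9-3p (-1.04 to -0.11), -3.77 for miR-129-5p (-7.30 to -0.24) and -0.65 for miR-129-2-3p (-1.65 to 0.35). All 6 then lay below 0, with an interval that left out 0 for 3 of them. None of the 6 was called, with adjusted p-values from limma of 0.63 to 1, where 1 of the 443 miRNAs tested was called. The share of all miRNAs with an interval that left out 0 in that fit is not given, so the intervals have no background to be read against.

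Over the 4 groups the order of the levels was the same for 5 of the 6 miRNAs in that both retina groups came first, then the control sclera and last the myopic sclera. For miR-124-3p the 2 scleras were in the opposite order, at normalized log2 means of 11.56 ± 1.69 in the control and 11.85 ± 0.63 in the myopic sclera (SD, n = 3). On the scale of the total gene signal the order for miR-124-3p was that of the others, with a mean of 3212 in the control and 2176 in the myopic sclera. On the quantile-normalized scale with all arrays, the neighbours within a tissue did not differ beyond their spread for any of the 6, and retina and sclera differed in both tests of the tissues. The change with deprivation was also compared between the tissues. The difference between the retinal and the scleral change was 0.43 for miR-9-3p (standard error 0.30, adjusted p = 0.43) and between -0.29 and 1.94 for the other 5, with adjusted p-values from limma of 0.59 to 0.93. No member had an unadjusted p-value under 0.05 for it, against 8.13% of the miRNAs tested, and none was called, against 0.226%.

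The ratio of the arms of a hairpin varied little in the retina. On the log2 scale the signal of miR-9-5p over miR-9-3p was -1.67 to -1.42 over the 6 retina arrays, that of miR-124-5p over miR-124-3p -7.58 to -7.46, and that of miR-129-5p over miR-129-2-3p -1.78 to -1.60. The control and myopic retinas overlapped in all 3 ratios. Where both arms were detected in the sclera the ratios were lower, at -2.98 to -1.91 for miR-9 on 6 arrays (-2.27 to -1.91 without control sclera 3, which had no detected arm pair for the other 2), -8.48 to -7.66 for miR-124 on 4 arrays and -2.62 to -2.50 for miR-129 on 3 arrays. A ratio of this kind holds the brightness of 2 different probes and is read only across arrays. The total gene signal leaves out undetected probes. In the sclera miR-9-5p had 1 of 2 probes detected on control sclera 3. On every other sclera array both miR-9 arms had both probes. MiR-124-5p had both probes on control sclera 1 and 2, at ratios of -7.67 and -7.66, and 1 on myopic sclera 1 and 3. MiR-129-5p had 1 probe wherever it was detected in the sclera, and miR-129-2-3p had 1 on several arrays. Where probes were missing, their part in the lower ratios was not tested.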

How the data were processed

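The authors hybridized RNA of each pool to an Agilent Mouse miRNA array and deposited the scanner output, in which probe values and total gene signals are a background-subtracted fluorescence intensity without normalization between arrays. The paper names version A.9.5.3 of Feature Extraction, whereas the file headers give 11.0.1.1 and the build mm9. A probe counted as detected above 3 times its error, and an undetected miRNA was given 0.1. The authors also deposited log2 values of 437 miRNAs, quantile normalized after bringing the minimum to 0.5, with Partek 6.6 named in their processing notes. Those computed here correlated with them at 0.999, with a median absolute difference of 0.12, and they served as an alternative.

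Here total gene signals under 0.5 were set to 0.5, and the 696 names of the 12 arrays were quantile normalized and log2 transformed. Filtering removed 253 miRNAs without detection on any array. The other 443 were tested with limma 3.58.1 in R 4.3.3 in a single fit of 4 groups with 8 residual degrees of freedom, two-sided, with Benjamini-Hochberg adjustment over all 443. The fit was tested on simulated data. The number of arrays limits the precision, and no miRNA spot was saturated. Replicate numbers pair the arrays by the identifier in the labels and by slide. Over 246 miRNAs, deviations from the group means correlated at 0.38, -0.46 and 0.59 within retina pairs and at -0.14, -0.16 and -0.0015 within sclera pairs. Members were named by rule as all arms of the families, then their 3 closest profiles and marker lists. Members and lists were chosen with earlier results of these data known. Alternatives covered scaling, floor, background correction, filter, array weights, groups in the fit and single arrays left out.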

Additional observations from a re-analysis of the deposited data

How the results depend on the processing

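The higher retina level kept its direction for all 6 miRNAs under every alternative that gave a value, and miR-124-3p, both miR-9 arms and both miR-129 arms kept their call in both comparisons of tissues. Left-out arrays moved the number called to 5 at the lowest, always through miR-124-5p, which lost its call between control tissues also with the replicate block (5.36, adjusted p = 0.051), without the filter on dim miRNAs (5.36, 0.067) and with only the 2 groups in the fit (5.36, 0.086). The replicate block changed no other call of the 6. With only miRNAs detected on all 12 arrays, miR-124-5p and miR-129-5p have no value and the other 4 were called. Under 75th percentile scaling the mean signal in the sclera as a percentage of the control retina was 5.12 in the control and 4.74 in the myopic group for miR-124-3p, 3.82 and 3.19 for miR-9-5p, 6.55 and 4.65 for miR-9-3p, and 1.73 and 1.34 for miR-129-2-3p.

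With deprivation none of the 6 was called in the retina or the sclera under any alternative. For miR-124-3p in the retina, alternatives that kept the quantile normalization of total gene signals could not have called it, since its difference was fixed at 0. It was 0.00072 with 75th percentile scaling over miRNAs detected on all arrays, 0.088 with that scaling over the miRNAs of each array and 0.11 without normalization. Small differences changed sign. In the retina, miR-129-5p was at -0.023 with 75th percentile scaling over miRNAs detected on all arrays, both with 4 groups and, as chosen after seeing the data, with only the 2 groups in the fit. MiR-124-5p was at 0.080 with that scaling over the miRNAs of each array and at 0.10 without normalization. With array weights, whose estimation stopped before full convergence, miR-129-2-3p was at -0.044, miR-129-5p at -0.029, miR-9-3p at -0.052 and miR-9-5p at -0.10. In the sclera, miR-129-5p was at 0.0030 with normexp and at 0.90 with processed spot signals. With array weights miR-124-3p was at -0.83 there (interval -1.55 to -0.105, adjusted p = 0.28 from limma). The difference between the tissues' changes was -0.079 for miR-124-5p with normexp and -0.095 with processed spot signals, -0.83 for miR-129-5p with processed spot signals and 0.83 for miR-124-3p with array weights. Under array weights 1 member, miR-129-5p, was called by limma (4.46, adjusted p = 0.038), where 156 of the 443 miRNAs tested were called. The size for miR-129-5p rests partly on the floor given to undetected sclera arrays. The cause of these changes was not tested.

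Leaving out 1 array at a time gave, in the retina, -0.025 to 0.060 for miR-129-2-3p, -0.039 to 0.15 for miR-129-5p, -0.022 to 0.045 for miR-9-3p and -0.072 to 0.10 for miR-9-5p. MiR-124-5p stayed below 0 there, at -0.20 to -0.081, and miR-124-3p stayed at 0, where the normalization fixed it. In the sclera it gave -0.68 to 0.78 for miR-124-3p, -2.68 to 1.33 for miR-124-5p, -3.80 to -0.82 for miR-129-5p, -0.90 to 0.013 for miR-129-2-3p, -0.58 to -0.21 for miR-9-3p and -0.50 to 0.20 for miR-9-5p. The closest profiles and arm ratios without control sclera 3, and the profiles on the 75th percentile scale, were chosen after seeing the data. The difference between the tissues' changes ran from -0.78 to 0.68 for miR-124-3p, from -1.48 to 2.53 for miR-124-5p and from -0.16 to 0.53 for miR-9-5p.

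Over all miRNAs, the number called between myopic and control retina was 1, but 146 with array weights, 122 without control retina 1, 14 without myopic retina 3, 2 with the authors' log2 values and 0 with normexp. Between control tissues it was 224, and 66 with normexp. Signals of miR-124-5p and miR-129-5p near the detection limit on the sclera arrays restrict what can be read from their size there. The same holds where only 1 of 2 probes was detected, for miR-129-2-3p on several sclera arrays and for miR-9-5p on control sclera 3.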
